A study of Mus musculus with 8 samples.

Results

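Drug-metabolising cytochrome P450 genes of the mouse liver were examined together with P450 oxidoreductase and the receptors PXR and CAR, which control many of them. The members were a list of 30 genes chosen by name and Ensembl ID, and 27 of them were read, out of 22361 probe sets. Cyp3a41a, Cyp2a4 and Cyp2a5 were not analysed here. Each gene was represented by 1 probe set.

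Liver RNA was measured on 8 Affymetrix arrays, 1 per animal, in female mice of strain C57BL/6 whose age the labels do not give. In the SPC3833 group, 4 mice were dosed intravenously with the antisense oligonucleotide SPC3833 at 5 mg/kg on 3 consecutive days, and in the control group 4 mice received saline. The labels do not name the target of SPC3833. They place the measurement on day 4 in one field and sacrifice on day 3 in another. The values are log2 expression, so a difference of 1 is a doubling. The mean over all probe sets lay between 5.77 and 5.88 on the 8 arrays. The marker lists of liver cell types could not be looked up by name, so the tissue was not checked against them. In the saline livers, 20 of the 27 genes lay among the brightest 10% of probe sets.

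Cytochrome P450 enzymes are haem proteins of the endoplasmic reticulum that oxidise drugs, steroids, fatty acids and other lipophilic compounds, with electrons passed from NADPH by P450 oxidoreductase. In liver the nuclear receptors CAR and PXR sense foreign compounds and bile acids, pair with RXR and raise transcription of Cyp2b, Cyp2c and Cyp3a genes, while the aryl hydrocarbon receptor does so for Cyp1a genes. Several mouse P450 genes also differ between the sexes under the control of growth hormone.

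With SPC3833, 0 of the 27 genes changed at an adjusted p under 0.05 (limma, Benjamini-Hochberg over all probe sets), against 4.07% of all probe sets and 10.4% of the brightest 25%, to which 25 of the 27 belong. Of all probe sets, 2.33% were called higher and 1.74% lower. The smallest adjusted p was 0.0798, for Cyp2b10, the only 1 of the 27 under 0.1, against 7.07% of all probe sets. At an unadjusted p under 0.05 there were 8, 4 with a higher and 4 with a lower mean, or 29.6% against 17.2% of all probe sets (10.9% higher and 6.3% lower). Among the brightest 25% that share was 32.0% for these genes and 34.8% for the probe sets. The groups overlapped for every one of the 27, so 0 were fully separated, against 11.7% of all probe sets. The median log2 fold change was -0.01 over the 27 genes and 0.03 over all probe sets, and 13 means were higher and 14 lower with SPC3833. Fewer cells of a type and less RNA per cell cannot be told apart in these whole-liver samples.

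The intervals give the sizes of change that remain compatible with these arrays. They hold for 1 gene at a time and are not adjusted for the number of probe sets, unlike the calls. The smallest change that could have been called is therefore not given by them. The 95% interval of the log2 fold change had a median half-width of 0.255. It lay within a 1.5-fold change in either direction for 21 of the 27 genes, and within a 2-fold change for 26. The exception to the latter was Cyp3a16, whose half-width was 1.54. An adjusted p above the threshold does not show that a gene was unaltered, and the intervals state what sizes remain possible.

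**Figure D1:**
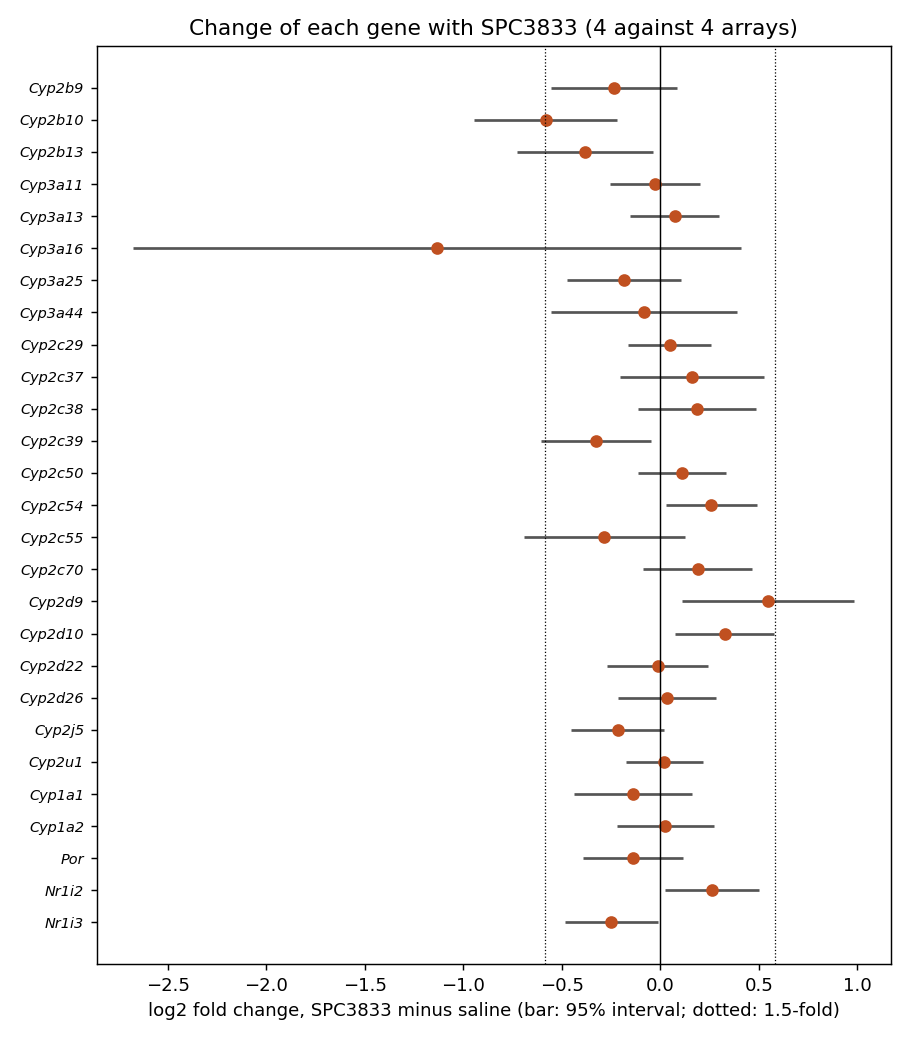
Log2 fold change of each of the 27 genes, SPC3833 minus saline, with its 95% interval as a bar (4 against 4 arrays); dotted lines mark a 1.5-fold change. Most intervals include 0 and lie between the dotted lines, Cyp2b10 is centred at -0.58, and the interval of Cyp3a16 runs from -2.68 to 0.41.

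The receptors were examined first. Nr1i3 (ENSMUSG00000005677_at) encodes CAR, the receptor that mediates the response to phenobarbital. Its log2 expression was 9.90, 9.98, 9.70 and 9.91 on saline arrays 1 to 4, and 9.65, 9.83, 9.61 and 9.39 on SPC3833 arrays 1 to 4. Of the SPC3833 arrays, 3 lay below every saline array and array 2 lay among them. The difference was -0.25 (SE 0.108, 95% interval -0.49 to -0.01, limma adjusted p = 0.259, two-sided exact permutation p = 0.0571). Nr1i2 (ENSMUSG00000022809_at), which encodes PXR, gave means on the other side. It stood at 8.05, 8.15, 8.41 and 8.40 with saline and at 8.47, 8.49, 8.69 and 8.41 with SPC3833, so that only array 4 reached down into the saline range. The difference was 0.26 (SE 0.108, 95% interval 0.03 to 0.50, limma adjusted p = 0.229, exact permutation p = 0.0571). The smallest p that 4 against 4 animals allow in this permutation test is 0.0286, and no gene of the list reached it.

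Por (ENSMUSG00000005514_at) encodes the reductase on which all microsomal P450 enzymes depend. It read 9.82, 9.85, 9.90 and 9.94 with saline and 9.83, 9.82, 9.92 and 9.38 with SPC3833. Apart from the low value on array 4, the SPC3833 values lay within the saline range. The mean difference was -0.14 (SE 0.116, 95% interval -0.39 to 0.12, limma adjusted p = 0.637, exact permutation p = 0.371), and -0.02 without array 4.

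The Cyp2b genes had lower means in all 3 cases, and Cyp2b10 came nearest to the threshold of the genes examined. Cyp2b10 (ENSMUSG00000030483_at) is the classical CAR target of mouse liver. Its log2 expression was 8.82, 9.37, 9.15 and 9.38 on saline arrays 1 to 4 and 8.51, 8.78, 8.92 and 8.19 on SPC3833 arrays 1 to 4. Only SPC3833 array 3, at 8.92, exceeded the lowest saline value. The means were 9.18 ± 0.26 and 8.60 ± 0.32 (SD, n = 4 each), a log2 difference of -0.58 or 1.5-fold lower (SE 0.167, 95% interval -0.95 to -0.22, limma adjusted p = 0.0798, exact permutation p = 0.0571). When the test was restricted to probe sets above the median signal, the same difference had an adjusted p of 0.0325. Without SPC3833 array 4 it was -0.45, and over all 17 alternative fits it lay between -0.70 and -0.45, with adjusted p from 0.0325 to 0.242.

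Cyp2b13 (ENSMUSG00000040583_at) and Cyp2b9 are female-predominant genes of the same family. Cyp2b13 read 10.93, 10.85, 10.86 and 11.10 with saline and 10.71, 10.59, 10.88 and 10.03 with SPC3833. The SPC3833 value on array 3 lay within the saline range and the other three lay below it. The difference was -0.38 (SE 0.157, 95% interval -0.73 to -0.04, limma adjusted p = 0.230, exact permutation p = 0.0857), and it was -0.21 without array 4. For Cyp2b9 the saline arrays ran from 12.02 to 12.13, SPC3833 arrays 1 to 3 from 11.92 to 12.08, and array 4 stood at 11.32 (difference -0.24, limma adjusted p = 0.475, and -0.07 without array 4). How far the probe sets of Cyp2b9 and Cyp2b13 read each other's transcripts was not tested.

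The promoters of the Cyp2b genes are shown because the 3 genes had lower means together. The 250 bases before the start of transcription, from RefSeq on GRCm38.p6, were identical at 248 of 250 positions between Cyp2b9 and Cyp2b13, and at 179 of 240 aligned positions between Cyp2b10 and either of them. In the sequences, on the strand of the gene, capitals mark the nuclear receptor half-site AGGTCA, its variant AGTTCA and the TATA box letters TATAAA, searched on both strands. The Cyp2b10 window (chr7:25897408-25897657, plus strand) held none of the 3 motifs. The Cyp2b13 window (chr7:26061245-26061494, plus strand) held AGGTCA, beginning 138 bases before the start.
Cyp2b10: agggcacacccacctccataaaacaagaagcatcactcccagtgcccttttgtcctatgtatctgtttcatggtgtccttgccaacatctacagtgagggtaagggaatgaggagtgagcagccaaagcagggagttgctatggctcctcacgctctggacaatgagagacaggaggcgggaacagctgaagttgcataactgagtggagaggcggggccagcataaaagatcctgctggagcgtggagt
Cyp2b13: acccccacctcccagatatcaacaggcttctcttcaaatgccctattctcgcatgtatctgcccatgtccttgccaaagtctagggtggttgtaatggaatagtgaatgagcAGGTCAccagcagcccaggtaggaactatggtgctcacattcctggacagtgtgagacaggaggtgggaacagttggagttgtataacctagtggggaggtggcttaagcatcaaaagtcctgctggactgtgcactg

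Across all 32851 promoter windows in the table, 14% held AGGTCA, 11.8% AGTTCA and 12.4% TATAAA. Promoters were listed for 24 of the 27 genes, and of these 9 held AGGTCA, 3 AGTTCA and 13 TATAAA. A gene was counted if any of its listed windows held the motif, whereas the percentages are of single windows. The counts and the percentages are therefore not like measures. In the windows shown, no matches overlap each other. A match describes letters only and is not evidence of binding, and the window leaves out the distal enhancers through which CAR and PXR are known to act.

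**Figure D2:**
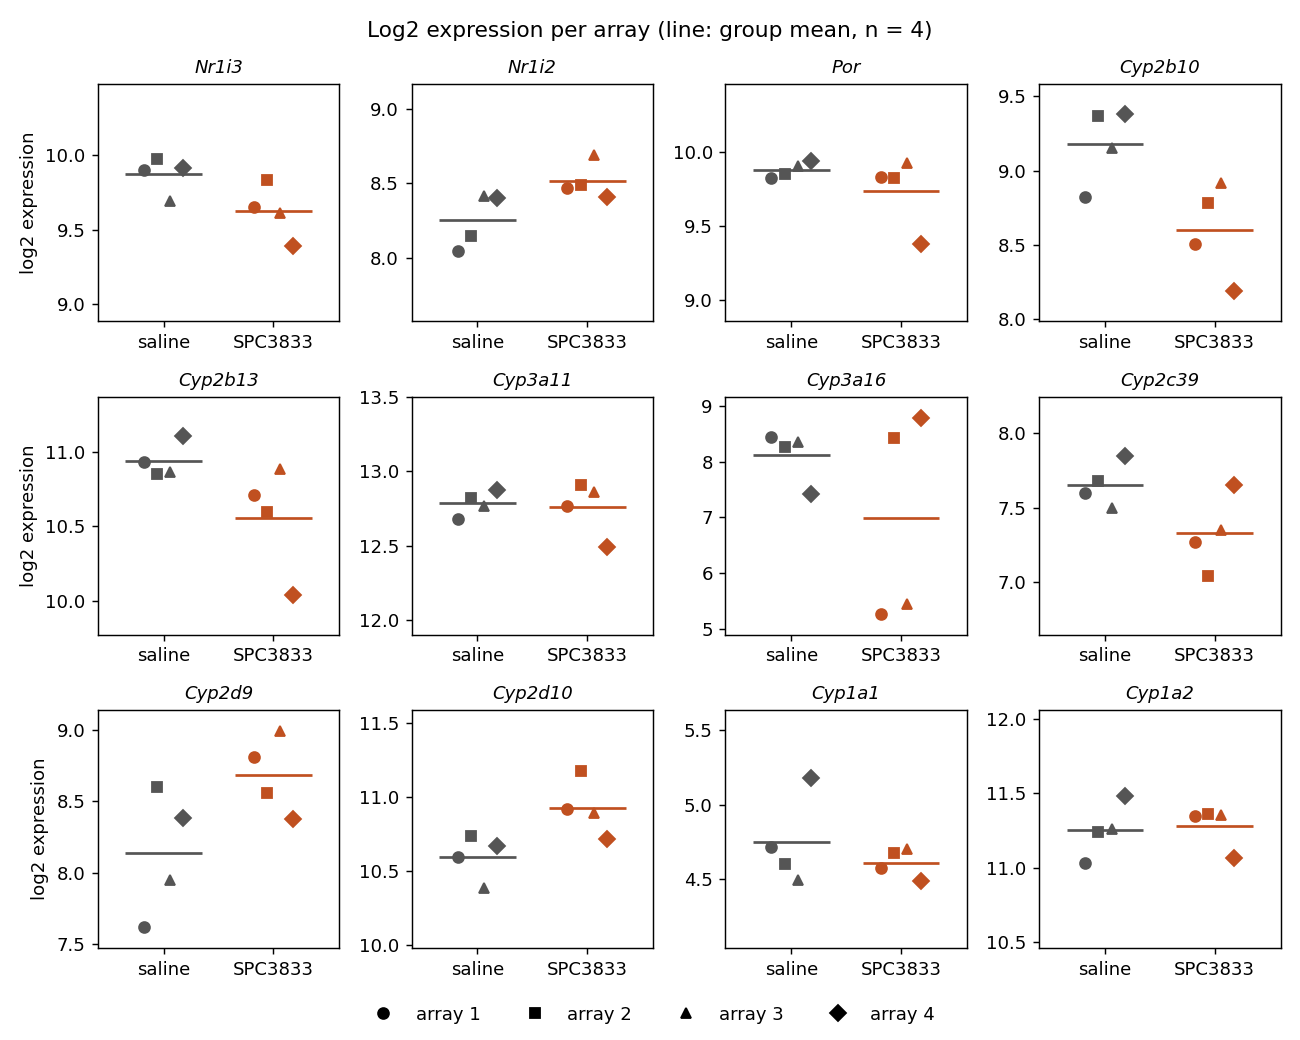
Log2 expression on each array for 12 genes, with saline in grey and SPC3833 in orange; marker shapes give the array number within the group and lines the group mean (n = 4). The groups overlap in every panel, SPC3833 array 4 is the lowest SPC3833 array for Cyp2b10, Cyp2b13, Nr1i3 and Por, and SPC3833 arrays 1 and 3 lie far below all others for Cyp3a16.

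Within the Cyp3a family the abundant, PXR-inducible enzyme gene and the minor female gene Cyp3a16 differed in how their arrays were spread. Cyp3a11 (ENSMUSG00000056035_at), the main PXR target and the mouse counterpart of human CYP3A4, read 12.68, 12.82, 12.77 and 12.87 with saline and 12.77, 12.91, 12.86 and 12.49 with SPC3833. Apart from array 4, the SPC3833 values stood within the saline range or just above it. The difference was -0.03 (SE 0.104, 95% interval -0.26 to 0.20, limma adjusted p = 0.948, exact permutation p = 0.83). The direction of so small a difference depended on the processing: it was 0.09 after quantile normalization and 0.06 without array 4. Cyp3a13, another PXR-responsive member expressed in liver and gut, differed by 0.07 (95% interval -0.15 to 0.30), and Cyp3a25 by -0.19 (95% interval -0.48 to 0.11, and -0.08 without array 4).

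Cyp3a16 (ENSMUSG00000038656_at), a form of fetal and adult female mouse liver, had the widest spread. Its saline arrays stood at 8.44, 8.26, 8.36 and 7.41. SPC3833 arrays 1 to 4 stood at 5.26, 8.43, 5.44 and 8.79. Arrays 1 and 3 thus lay far below every saline array, while array 2 lay within the saline range and array 4 above it. The means were 8.11 ± 0.47 with saline and 6.98 ± 1.89 with SPC3833 (SD, n = 4 each), a log2 difference of -1.13 (SE 0.705, 95% interval -2.68 to 0.41, limma adjusted p = 0.476, exact permutation p = 0.400).

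The mean of Cyp3a16 describes no SPC3833 animal, as its values fall into a low and a high pair. The lowest of the other 6 arrays was 1.97 above the higher of SPC3833 arrays 1 and 3. A search for this pattern, made after the values were seen, found 1 probe set of 22361 with both of these arrays at least 1 below the other 6, and that was Cyp3a16 itself. The next largest gap was 0.86. The pair of arrays was taken from the values of Cyp3a16, so finding it was fixed in advance, and no other pair was searched. By Pearson's r over the 8 arrays, the closest probe set outside the list reached 0.98 with Cyp3a16. That r is the highest of all probe sets outside the list. How high an r the best of so many reaches by chance over 8 arrays was not tested. An SD above 1 among the SPC3833 arrays was seen for 26 probe sets, or 0.116% of all. In the planned fit without SPC3833 arrays 2 and 4, Cyp3a16 differed by -2.76 (limma adjusted p = 0.0017), but that fit removes the very animals with high Cyp3a16 and says nothing about the group.

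Cyp3a44, a closely related female-predominant gene, did not share the gap. Its saline values were 7.33, 8.20, 8.20 and 7.91, and its SPC3833 values were 7.32, 7.99, 7.79 and 8.22. SPC3833 array 1 was lowest and array 4 highest, as far apart as the saline arrays were among themselves. The SPC3833 arrays ranked as they did for Cyp3a16, from array 1 through 3 and 2 to array 4. Pearson's r between the 2 genes over the 8 arrays was 0.54. The difference was -0.08 (95% interval -0.55 to 0.39, limma adjusted p = 0.923). Genes of this family share much of their sequence, and how far the probe sets of Cyp3a16 and Cyp3a44 read each other's transcripts was not tested.

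The promoters of these 2 genes are given to show how alike they are, while of the 2 only Cyp3a16 had the gap. The promoters were identical at 236 of 246 aligned positions, against 199 of 239 between Cyp3a16 and Cyp3a11. All 3 are read on the minus strand of GRCm38.p6, as the 250 bases before the start from RefSeq, with the same motifs in capitals. The windows are chr5:145879855-145880104 for Cyp3a11, chr5:145469724-145469973 for Cyp3a16 and chr5:145805875-145806124 for Cyp3a44. Cyp3a44 and Cyp3a11 each held AGGTCA, and Cyp3a11 also AGTTCA on the other strand. Cyp3a16 and Cyp3a44 held TATAAA at 126 and 122 bases before the start, and Cyp3a11 held it at 234.
Cyp3a11: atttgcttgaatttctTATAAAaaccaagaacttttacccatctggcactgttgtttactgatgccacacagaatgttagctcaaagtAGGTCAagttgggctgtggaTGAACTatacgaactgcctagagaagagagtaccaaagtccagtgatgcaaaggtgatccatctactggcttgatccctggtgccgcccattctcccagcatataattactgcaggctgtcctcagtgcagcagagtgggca
Cyp3a16: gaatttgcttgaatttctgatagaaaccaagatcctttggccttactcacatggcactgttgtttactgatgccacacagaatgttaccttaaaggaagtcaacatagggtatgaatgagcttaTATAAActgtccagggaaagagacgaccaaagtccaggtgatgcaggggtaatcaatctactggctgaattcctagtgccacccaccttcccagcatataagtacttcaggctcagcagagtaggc
Cyp3a44: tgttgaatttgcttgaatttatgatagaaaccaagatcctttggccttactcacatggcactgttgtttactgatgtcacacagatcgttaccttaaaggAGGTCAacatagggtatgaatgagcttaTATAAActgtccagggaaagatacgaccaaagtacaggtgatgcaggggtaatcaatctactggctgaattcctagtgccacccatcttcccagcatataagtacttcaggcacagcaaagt

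The Cyp2c genes encode enzymes that epoxidise arachidonic acid, hydroxylate retinoic acid and oxidise drugs. Of the 8 read, 6 had a higher and 2 a lower mean with SPC3833, with log2 differences from -0.33 to 0.26 and adjusted p from 0.203 to 0.884. Cyp2c39 (ENSMUSG00000025003_at), whose product hydroxylates retinoic acid in mouse liver, read 7.60, 7.68, 7.50 and 7.85 with saline and 7.27, 7.04, 7.35 and 7.65 with SPC3833. Arrays 1 to 3 lay below every saline array and array 4 among them. The difference was -0.33 (SE 0.128, 95% interval -0.61 to -0.05, limma adjusted p = 0.203, exact permutation p = 0.0857).

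Of the 5 Cyp2c genes listed as CAR targets, 4 had a higher mean and Cyp2c55, like Cyp2b10, a lower one. Cyp2c54 had the highest mean difference of the family, 0.26 (95% interval 0.03 to 0.49, limma adjusted p = 0.227). Cyp2c50 differed by 0.11, Cyp2c37 by 0.16 and Cyp2c29 by 0.05, each with an interval that includes 0. Cyp2c55, which CAR and PXR ligands induce in mouse liver, differed by -0.28 (95% interval -0.69 to 0.12). That difference was -0.157 without saline array 4, -0.165 without SPC3833 array 2 and -0.174 without SPC3833 array 4. Of the 6 genes listed as CAR targets, Cyp2b10 included, 4 had a higher and 2 a lower mean, with a median of 0.08. Cyp2c38 differed by 0.19, as did Cyp2c70, whose product makes muricholic acids in the mouse.

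Among the Cyp2d genes, the mouse relatives of the human enzyme that metabolises many antidepressants and beta blockers, 3 of 4 had higher means. Cyp2d9 (ENSMUSG00000068086_at), a steroid hydroxylase gene expressed mainly in males, read 7.62, 8.60, 7.95 and 8.38 with saline and 8.81, 8.56, 8.99 and 8.38 with SPC3833. Its saline arrays spread widely, and SPC3833 arrays 2 and 4 lay among them. The difference was 0.55 or 1.46-fold higher (SE 0.200, 95% interval 0.11 to 0.99, limma adjusted p = 0.170, exact permutation p = 0.143). Cyp2d10 (ENSMUSG00000094806_at) read 10.59, 10.74, 10.39 and 10.67 with saline and 10.92, 11.18, 10.89 and 10.71 with SPC3833, so that only array 4 overlapped the saline range. It differed by 0.33 (SE 0.115, 95% interval 0.08 to 0.58, limma adjusted p = 0.150, exact permutation p = 0.0571). Cyp2d22 and Cyp2d26 differed by -0.01 and 0.03.

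The Cyp1a genes, targets of the aryl hydrocarbon receptor, stood within the spread of the saline arrays or at its edge. Cyp1a2 (ENSMUSG00000032310_at), the constitutive hepatic form that clears caffeine, read 11.03, 11.24, 11.26 and 11.48 with saline and 11.35, 11.36, 11.35 and 11.06 with SPC3833. Every SPC3833 value fell inside the saline range. The difference was 0.03 (SE 0.112, 95% interval -0.22 to 0.27, limma adjusted p = 0.954, exact permutation p = 0.886). Cyp1a1 (ENSMUSG00000032315_at), which is low in liver until induced, read 4.72, 4.60, 4.50 and 5.18 with saline and 4.57, 4.68, 4.70 and 4.49 with SPC3833. Its difference was -0.14 (SE 0.136, 95% interval -0.44 to 0.16, limma adjusted p = 0.708, exact permutation p = 0.486). The values carry no detection call, so whether Cyp1a1 was above background is unknown. Outside these families, Cyp2j5, an arachidonic acid epoxygenase gene, differed by -0.22 (95% interval -0.45 to 0.02, and -0.12 without array 4) and Cyp2u1, a long-chain fatty acid hydroxylase gene, by 0.02 (95% interval -0.17 to 0.22).

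The female-predominant genes of several families can be set side by side. All 5 that were read, Cyp2b9, Cyp2b13, Cyp3a16, Cyp3a44 and Cyp2c39, had lower means with SPC3833, with a median log2 difference of -0.33, and the male-predominant Cyp2d9 had a higher mean. Lower means were seen for 9182 of all 22361 probe sets, and for 317 of the 573 probe sets above 10 in saline. Cyp2b9 and Cyp2b13 belong to these bright probe sets. None of the 6 genes passed the threshold, and the lists were chosen with earlier results of these data known. On SPC3833 arrays 1 and 3 all 5 genes lay below the saline mean. The differences ran from -2.85 (Cyp3a16) to -0.15 (Cyp2b9) on array 1. They ran from -2.68 (Cyp3a16) to -0.05 (Cyp2b9) on array 3. The genes were divided on arrays 2 and 4. On array 2 Cyp2b13 and Cyp2c39 stood at -0.34 and -0.61, and Cyp2b9, Cyp3a44 and Cyp3a16 at 0.008, 0.08 and 0.32. On SPC3833 array 4 the difference from the saline mean was -0.75 for Cyp2b9 and -0.90 for Cyp2b13. There it was 0.67 for Cyp3a16, 0.31 for Cyp3a44 and -0.004 for Cyp2c39. The sign for Cyp3a44 turned in 3 of 17 alternative fits, and the signs of the other five genes in none.

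In most of these genes the SPC3833 animals differed among themselves more than the saline animals did. The SD among SPC3833 arrays exceeded that among saline arrays for 22 of the 27 genes, with medians of 0.239 and 0.119, against 0.151 and 0.127 over all probe sets. Such genes were not counted among all or among bright probe sets, so whether the wider spread is particular to this list was not tested. Array 4 held the lowest SPC3833 value for 19 of the 27 genes (70.4%), against 38.6% of all probe sets. This low position was shared by bright probe sets in general: among those above 10 in saline, array 4 was lowest for 13 of 14 of these genes and for 71.4% of the 573 probe sets. The median difference of array 4 from the saline mean was -0.17 over the 27 genes and -0.26 over the 573 bright probe sets, but -0.03 over all probe sets. The part of this shift of bright probe sets in the lower means of single genes was not tested. Leaving out array 4 gave 0 called genes as well.

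SPC3833 array 2 stood highest for 5 of the 8 Cyp2c genes. It exceeded the saline mean by 0.74 for Cyp2c37, by 0.57 for Cyp2c38, by 0.55 for Cyp2c70, by 0.50 for Cyp2c54 and by 0.37 for Cyp2c50, while Cyp2c39 and Cyp2c55 lay 0.61 and 0.64 below it there. On this array both directions were therefore present within a single family. Array 2 was the highest SPC3833 array for 65.1% of the probe sets above 10 in saline and for 42% of all, with a median difference of 0.10 from the saline mean over all probe sets. Without array 2 the difference was -0.03 for Cyp2c37, 0.06 for Cyp2c38, 0.07 for Cyp2c70 and 0.03 for Cyp2c50, so the higher means of these 4 genes rest largely on that animal. For Cyp2c54 it was 0.18.

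**Figure D3:**
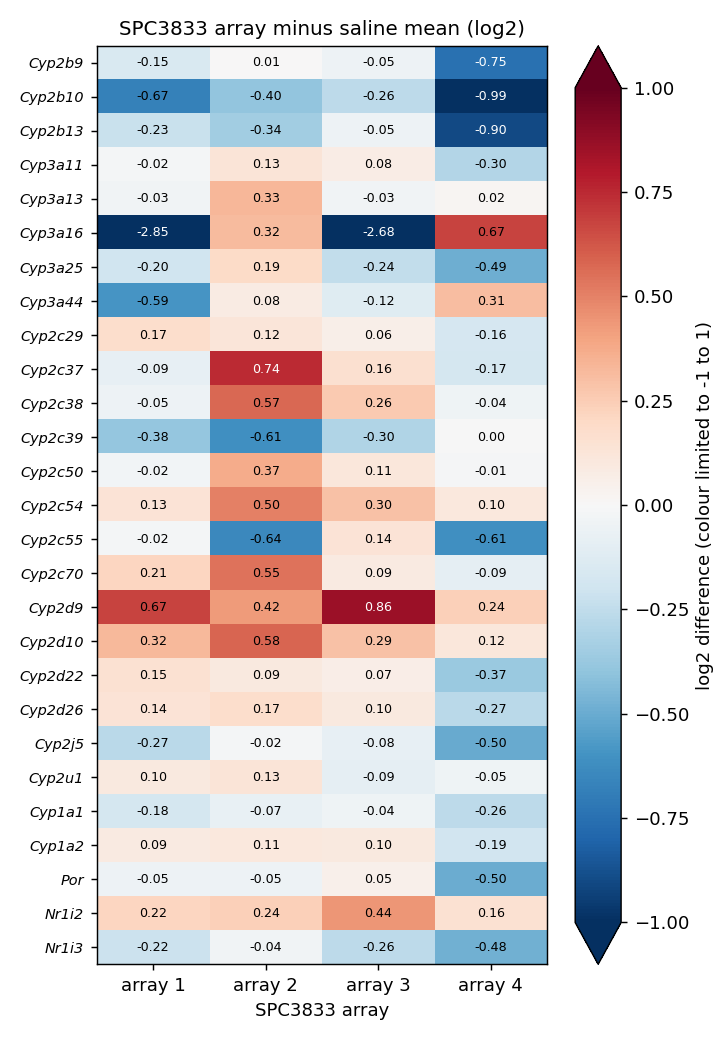
Difference of each SPC3833 array from the saline mean, in log2 units, for the 27 genes (rows) and 4 arrays (columns); red is higher and blue lower, with the colour limited to the range from -1 to 1. Array 4 is blue for most rows, most of all the 3 Cyp2b genes, array 2 is red for 6 of the 8 Cyp2c genes, and Cyp3a16 stands at -2.85 and -2.68 on arrays 1 and 3.

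The pattern of Cyp2b10 over the 8 arrays was compared with that of the other genes by Pearson's r, as a description that includes both the group difference and the shift of array 4. Among the genes of the list, Cyp2j5 (0.85), Cyp2b13 (0.83), Cyp2b9 (0.79), Nr1i3 (0.78) and Por (0.77) came closest. Nr1i2 stood at -0.22 and Cyp2d10 at -0.31. Outside the list the 5 closest of all probe sets reached 0.97 to 0.99, none of which passed the threshold for a change (adjusted p from 0.112 to 0.510).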

How the data were processed

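The authors deposited log2 expression values for 22361 probe sets on 8 arrays. The log2 scale was read from their range (0.88 to 14.18). Of the tools used, the submitters' processing notes name affy, without a version; background correction, normalization, probe set definition and genome build are not given in the sources used here. Precision is limited by 4 arrays per group. Probe sets carry Ensembl IDs without gene names. The names of the 30 listed genes came with the list itself, and could not be checked because the gene table used here holds no Ensembl IDs; planned lists of other pathway genes and cell type markers were therefore not analysed. The members and lists were chosen with earlier results of these data known.

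Groups came from the sample titles, which describe biological replicates; arrays shared at most 0.134% identical values. The comparison was fitted on all probe sets in R 4.3.3 with limma 3.58.1 (lmFit, eBayes without trend, two-sided), with no filter or covariate, calling adjusted p under 0.05. The fit was tested on simulated data. Exact permutation tests used all 70 assignments of the arrays. Given in full, by rule, were Por, the 2 receptors, Cyp2b10, Cyp3a11, Cyp1a1 and Cyp1a2, any gene past the threshold, and the largest differences up to 12 genes. Promoters were aligned with Biopython 1.88 and figures drawn with matplotlib 3.10.9. Alternatives were quantile normalization, median centring, a filter on dim probe sets, an intensity trend, robust variances, array weights, a replicate block, adjusted p under 0.1, and arrays left out.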

Additional observations from a re-analysis of the deposited data

Results flagged for a closer look

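Of the 54 sets of 4 values examined for an array set apart from the other three, 4 held one, and chance gives about 1 in 20. On SPC3833 array 2 Cyp3a13 stood at 10.07, and in the remaining SPC3833 livers between 9.70 and 9.76. On saline array 4 Cyp2c55 stood at 6.12, and in the remaining saline livers between 5.58 and 5.64. On SPC3833 array 4, Cyp2d22 stood at 10.04, with 10.47 to 10.56 in the remaining SPC3833 livers, and Cyp1a2 at 11.06, with 11.35 to 11.36. Cyp3a16, with 2 low arrays, is not picked out by this measure.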

How the results depend on the processing

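No member was called higher in any of the 17 alternative fits. The number called lower was 1 in 3 of them: Cyp2b10 with probe sets above the median only and at adjusted p under 0.1, and Cyp3a16 without both SPC3833 arrays 2 and 4. In the first of these fewer probe sets were tested, the second moves only the threshold, and the third removes the animals with high Cyp3a16. Leaving out 1 array at a time gave 0 members in either direction. With the replicate block 0 members and 856 probe sets were called. Deviations of same-numbered arrays correlated at 0.16, 0.04, -0.03 and 0.14. Arrays of different numbers were not compared, so these values cannot decide whether the numbers pair the arrays. The main fit treated array numbers as names only. Of all 22361 probe sets 911 (4.07%) changed, and 1582 (7.07%) at adjusted p under 0.1, against 1 of the 27 members (3.7%). The number was 545 without both arrays, and 467 to 967 with 1 array left out. Among probe sets above the median only, 1552 changed, so the call of Cyp2b10 there was 1 of many.

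Of the 27 genes, 17 kept their sign throughout. Turned signs were 0.087 for Cyp3a11 and -0.013 for Cyp2u1 (quantile normalization), -0.0069 for Cyp2d26, -0.021 for Cyp2u1 and -0.016 for Cyp1a2 (median centring), 0.025 for Cyp2d22 and -0.0032 for Cyp2u1 (array weights), and 0.030 for Cyp3a11, -0.033 for Cyp3a13, 0.059 for Cyp2c55 and 0.11 for Cyp2d22 (without both arrays). With 1 array left out, values crossed 0 for 9 genes, running from -0.078 to 0.062 for Cyp3a11, -0.014 to 0.11 for Cyp3a13, -0.28 to 0.090 for Cyp3a44, -0.033 to 0.27 for Cyp2c37, -0.069 to 0.10 for Cyp2d22, -0.015 to 0.14 for Cyp2d26, -0.024 to 0.059 for Cyp2u1, -0.22 to 0.0066 for Cyp1a1 and -0.048 to 0.10 for Cyp1a2.

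Signal over background is not given in the values, so its limit on dim genes such as Cyp1a1 was not tested.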
